A study of Mus musculus with 16 samples.

Results

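RNA levels of 10 genes that are used to recognize and follow macrophages were examined in 16 mouse osteosarcomas. They are the receptor *Csf1r* and its ligand *Csf1*, the scavenger and pattern receptors *Mrc1*, *Cd163*, *Msr1* and *Cd14*, the clearance receptor *Mertk*, and the general markers *Adgre1*, *Cd68* and *Lyz2*. They were chosen by gene symbol, and all 10 were among the 25054 genes of the deposited count table. All mice carried OsxCreERT2+/-, a tamoxifen-inducible Cre under control of *Osterix* (*Sp7*), the transcription factor of osteoblast precursors, together with p53fl/fl and Rb1fl/fl. They received tamoxifen at 400 μg per gram of body weight at 1 month of age and were older than 6 months, of both sexes, when tumors were taken. The *Arid1a* KO group also carried Arid1afl/fl and holds 8 tumors with 8 names (Massa, Medusa, Montana, Ohio, Prince, Grilka, Zelda and Oregon), with no site given. The *Arid1a* WT group holds 8 tumors, and their animal codes name 4 mice. Of these tumors 4 came from N42 (right pelvis, right femur, left limb and left shoulder) and 2 from N43 (spine and pelvis). N215 gave a right hind limb tumor and N25 a tumor labeled lung.

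Macrophages are phagocytic cells of the myeloid lineage that enter most solid tumors and, in bone, share their precursors with the bone-resorbing osteoclasts. CSF1, which is secreted by osteoblasts and other mesenchymal cells, binds CSF1R on monocytes, macrophages and osteoclast precursors and keeps these cells alive. The scavenger and lectin receptors take up debris, modified lipoproteins and glycoproteins, CD14 presents bacterial lipopolysaccharide to TLR4, and MERTK mediates the engulfment of dying cells. The tumors were sequenced whole, so fewer macrophages and less RNA per macrophage cannot be told apart. The deletions were directed to the osteoblast lineage, and the counts do not show in which cells of a tumor they took place.

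The promoter sequences of *Mrc1* and *Cd68*, which were lower in KO, and of the ligand *Csf1* are shown. Several macrophage promoters lack a TATA box and rely on the myeloid factor PU.1, whose core site is the PU box. RefSeq start sites on GRCm38.p6 were used for 6 of the 10 genes (*Mrc1*, *Mertk*, *Csf1*, *Cd163*, *Lyz2* and *Cd68*), and the 250 bases before each start were searched on both strands. The letters searched were GAGGAA for the PU box and TGAGTCA for the AP-1 site, which do not overlap each other. The PU box letters occurred 3 times before *Mrc1*, on the minus strand, 180, 167 and 35 bases upstream of its start. They occurred 1 time before *Cd68*, 225 bases upstream on the plus strand, and were in none of the other 4 windows. The AP-1 letters were found 2 times before *Cd68*, 149 and 24 bases upstream, and before none of the other 5 genes. Among 32851 RefSeq promoters, the 250 bases before the start held the PU box letters in 23.3% and the AP-1 letters in 4.46%, so these matches are a description and not evidence of binding. The window of *Mrc1* is chr2:14229164-14229391 on the plus strand, that of *Cd68* is chr11:69666171-69666420 on the minus strand, and that of *Csf1* is chr3:107760470-107760719 on the minus strand. Capitals mark the PU box and AP-1 letters (TTCCTC is the PU box read from the minus strand), and the *Csf1* window has none. *Mertk*, which was also lower in KO, had no match in its window, and that sequence is not printed. The *Mrc1* sequence is printed only to the base before the start of the annotated gene, which leaves 228 of the 250 bases searched.
Mrc1: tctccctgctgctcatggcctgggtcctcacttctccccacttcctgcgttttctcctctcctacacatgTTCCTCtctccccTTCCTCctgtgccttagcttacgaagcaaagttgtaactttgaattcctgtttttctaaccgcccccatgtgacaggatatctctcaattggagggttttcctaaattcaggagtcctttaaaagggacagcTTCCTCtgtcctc
Cd68: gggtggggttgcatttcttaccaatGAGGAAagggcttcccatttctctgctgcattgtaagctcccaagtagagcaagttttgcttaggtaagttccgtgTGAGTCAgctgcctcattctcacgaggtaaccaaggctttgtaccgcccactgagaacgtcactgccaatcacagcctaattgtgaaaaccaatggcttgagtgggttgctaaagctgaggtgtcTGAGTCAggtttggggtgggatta
Csf1: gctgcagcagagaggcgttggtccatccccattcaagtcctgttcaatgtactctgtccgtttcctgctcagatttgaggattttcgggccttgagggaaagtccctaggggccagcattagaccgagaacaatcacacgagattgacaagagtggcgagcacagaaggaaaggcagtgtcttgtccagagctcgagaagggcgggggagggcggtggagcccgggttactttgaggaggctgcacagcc

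Facts about the libraries bear on these genes. Total counts on genes lay between 1109487 and 15059640 in KO (median 5367669) and between 7806160 and 16962329 in WT (median 14828152). A floor of 3 counts is 6.69 CPM in Massa and, in the other shallow KO library Grilka, 4.03 CPM, against 0.146 to 0.340 CPM in WT, where CPM (the unit of all levels here) is the count scaled to the TMM-normalized library size. Structural RNA such as ribosomal RNA took from 4.20% to 33.6% of the counts in KO and from 1.92% to 12.7% in WT. Osteoblast genes, used here as markers of the tumor cells, summed to 444 to 42310 CPM in KO (median 4611), the lowest in Prince. In WT they summed to 1842 to 54678 CPM (median 37243). The largest part was *Col1a1*, with a mean of 18287 CPM over all tumors against 1204 CPM for the next gene, *Spp1*. None of these 8 genes was called (edgeR adjusted p under 0.05), and 7 had negative log2 fold changes. The part of this difference in the macrophage values was not tested. *Runx2* and *Col1a1* had counts in every tumor, while *Sp7* and *Dmp1* were at 0 in 1 KO tumor each. *Bglap* was at 0 in 1 tumor of each genotype. Genes of other tissues stood out in single tumors. Lung epithelium genes summed to 12116 CPM in Massa and 28993 CPM in the N25 lung tumor, against 77.5 CPM or less in the other tumors. Skeletal muscle genes summed to 129810 CPM in Oregon and 74099 CPM in Montana, salivary gland genes to 20570 CPM in Prince, and in Zelda liver genes to 1316 CPM and B cell genes to 476 CPM. Sums of dendritic cell genes were 9.40 to 82.1 CPM in KO and 14.2 to 91.9 CPM in WT. *Arid1a* itself, counted over the whole gene, lay between 107 and 269.9 CPM in KO and between 125 and 236 CPM in WT (log2 fold change 0.16, standard error (SE) 0.22, adjusted p = 0.715, edgeR). A count over the whole gene does not show whether the floxed exons are lost, so the deletion was not checked here and the groups are named by their labels. The other floxed genes had log2 fold changes of 0.55 for *Trp53* (adjusted p = 0.183, edgeR) and 0.22 for *Rb1* (adjusted p = 0.734, edgeR).

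All 10 genes passed the filter on low counts, and 7 of them were lower in *Arid1a* KO tumors: *Csf1r*, *Mrc1*, *Adgre1*, *Cd68*, *Mertk*, *Cd14* and *Msr1*. Across all 15413 tested genes 2.15% were called lower (331 lower and 287 higher, which became 495 and 72 when libraries were scaled by total counts, a scaling that moved the median log2 fold change to −0.33 and left 4 of the 10 genes called). *Csf1*, *Cd163* and *Lyz2* did not pass the threshold. The log2 fold change was negative for all 10, with a median of −1.86, while the median over all tested genes was 0.10 and 44.1% of them were negative. The values of the 2 groups overlapped for all 10 genes. Among all tested genes 0.208% had every KO tumor below every WT tumor. For 7 of the 10 genes the lowest pair of WT tumors was N215 and N25, which also had the lowest osteoblast sums in WT, 3153 and 1842 CPM. For 5 genes (*Csf1r*, *Mrc1*, *Msr1*, *Mertk* and *Cd68*) no KO tumor reached the lowest of the 6 tumors of N42 and N43, a set taken after the values were seen. Among all tested genes 2.34% had every KO tumor below each of these 6 tumors. The comparison used edgeR's quasi-likelihood test on the 16 tumors with Benjamini-Hochberg adjustment over all tested genes. The WT tumors of 1 mouse are not independent, and with the mouse as the unit no call held. With counts summed per mouse none of the 10 genes passed, with edgeR adjusted p from 0.266 for *Mrc1* to 0.895 for *Cd163*. In that fit 7 of the 10 had an unadjusted p under 0.05, as did 1262 of all 16007 tested genes. Without the 4 tumors of N42 none passed either, and with the share of structural RNA as a covariate none passed (lowest adjusted p = 0.165, edgeR).

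**Figure D1:**
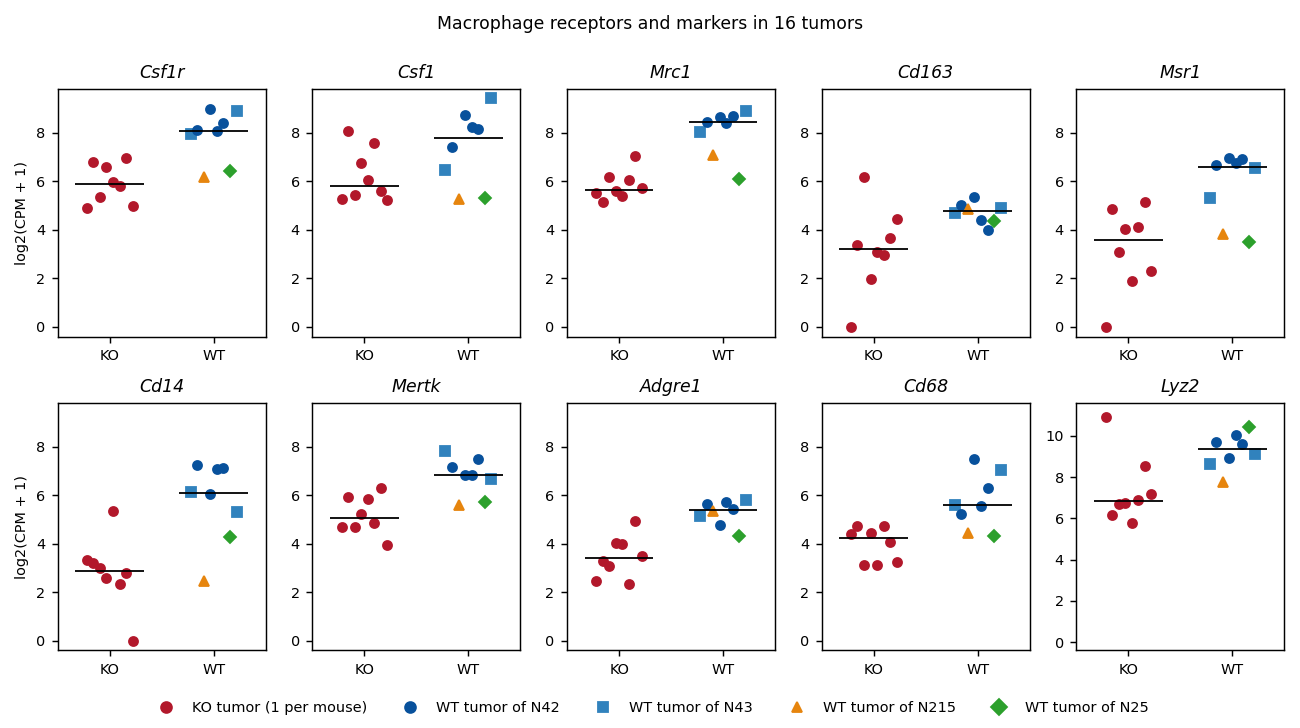
Each point is 1 tumor, the vertical axes give log2(CPM + 1), the horizontal lines are group medians, and WT tumors are marked by mouse. The KO tumors of *Csf1r* lie between 29.0 and 125 CPM, and the WT tumors of N42 and N43 all lie above them, whereas N215 and N25 fall among the KO values.

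*Csf1r*, the receptor tyrosine kinase required for the survival of macrophages and osteoclasts, was 4.09-fold lower in KO. It lay between 29.0 and 125 CPM in the KO tumors (median 58.4) and between 71.2 and 499 CPM in the WT tumors (median 270.3). Zelda, Medusa and Ohio were the highest KO tumors, and they exceeded the WT tumors N215 and N25 but none of the other WT tumors. The log2 fold change was −2.03 (SE 0.44, adjusted p = 0.0164, edgeR), and the call was kept when any 1 tumor was left out. In Massa the level rests on 13 counts. *Csf1r* lies on the plus strand of chromosome 18 from 61100598 to 61132149 (GRCm38), and its exons overlap those of *Hmgxb3*, a gene on the opposite strand, over 873 bases. Of its possible reads of 50 bases 14.3% also belong to *Hmgxb3*, and the strand setting of the counting is not given in the sources used here. *Hmgxb3* had a log2 fold change of 0.33 (adjusted p = 0.451, edgeR).

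*Csf1*, the ligand, ranged from 36.9 to 271 CPM in KO (median 56.3) and from 38.0 to 689.8 CPM in WT (median 226). Medusa with 271 CPM and Grilka with 191 CPM were high among the KO tumors, and N215 and N25 with 38.0 and 38.7 CPM were as low as the lowest KO tumors. Its log2 fold change of −1.35 (SE 0.61) did not pass the threshold (adjusted p = 0.196, edgeR). A 95% interval built from this change and its SE ran from −2.67 to −0.04, with the tumors of 1 mouse taken as independent. With counts summed per mouse the log2 fold change was −0.90 (adjusted p = 0.757, edgeR). *Csf1* lies on chromosome 3 from 107741048 to 107760469, on the minus strand. Within the 8 KO tumors ligand and receptor had a Pearson r of 0.56 on log2 CPM (two-sided exact permutation test, p = 0.148) and a Spearman rho of 0.67 (exact permutation p = 0.0831). Without Zelda and Massa, the tumors farthest from the median of *Csf1r*, r was 0.80 (exact permutation p = 0.0597, n = 6). This was the only relation tested. Without Zelda alone r was 0.83 (exact permutation p = 0.025), and with all 8 tumors scaled by total counts it was 0.77 (exact permutation p = 0.0268), so the side of 0.05 on which the relation falls depends on the tumors left out and on the scaling. The 4 WT mice are too few for a correlation.

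**Figure D2:**
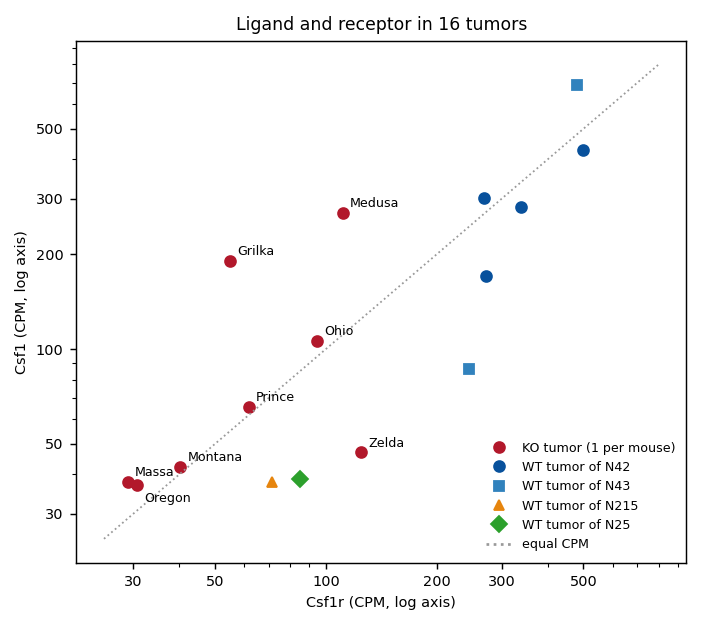
*Csf1* against *Csf1r* in CPM on log axes, 1 point per tumor, with a dotted line where both are equal. Zelda has the most *Csf1r* of the KO tumors (125 CPM) and little *Csf1* (47.0 CPM). All other KO tumors lie above the line, Grilka and Medusa farthest, as do the N42 left limb and N43 pelvis tumors. The levels are not corrected for gene length.

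Among the scavenger receptors *Mrc1* had the smallest p-value of the 10 genes. It encodes the mannose receptor CD206, common on tissue macrophages and on macrophages exposed to interleukin-4. *Mrc1* lay between 34.0 and 129 CPM in KO (median 49.5) and between 66.9 and 471 CPM in WT (median 343). Zelda was the highest KO tumor, the next was at 71.7 CPM, and 7 of the 8 WT tumors were above Zelda, the exception being N25. In the fit the log2 change was −2.33 (SE 0.39, adjusted p = 0.00530, edgeR), a 5.04-fold lower level, and the call was kept when any 1 tumor was left out. The gene spans chromosome 2 from 14229392 to 14332057 on the plus strand.

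*Msr1*, the class A scavenger receptor for modified lipoproteins, was 5.39-fold lower in KO. Its values were 0 to 34.5 CPM in KO (median 11.5) and 10.4 to 124 CPM in WT (median 95.9). Massa had 0 counts, which at its depth allows up to 6.69 CPM, and 4 KO tumors were above both N215 and N25. The log2 fold change of −2.43 (SE 0.67) was just past the threshold (adjusted p = 0.0486, edgeR). Leaving out any of 12 tumors ended the call, with edgeR adjusted p from 0.0509 to 0.0979. These were Medusa, Montana, Ohio, Prince, Grilka and Oregon in KO and all WT tumors of N42 and N43. *Msr1* lies on chromosome 8 from 39581685 to 39642673, on the minus strand.

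*Cd163*, the hemoglobin-haptoglobin scavenger receptor of resident macrophages, differed from the other scavenger receptors in its spread. It lay between 0 and 71.9 CPM in KO (median 8.34) and between 14.8 and 40.2 CPM in WT (median 26.4). Montana, at 71.9 CPM, exceeded every other tumor of both genotypes, and 6 KO tumors were below the lowest WT tumor. Its log2 fold change was −0.63 (SE 0.59, adjusted p = 0.560, edgeR), and without Montana it was −1.56 (adjusted p = 0.0782, edgeR). Montana also had 74099 CPM of skeletal muscle genes, and Oregon, with more of them, had 21.0 CPM of *Cd163*, the second highest value in KO. The part of muscle tissue in this was not tested. *Cd163* lies on chromosome 6 from 124304656 to 124330527, on the plus strand.

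*Cd14*, the co-receptor for lipopolysaccharide, had the largest change of the 10, 7.71-fold lower in KO. It lay between 0 and 39.2 CPM in KO (median 6.36) and between 4.54 and 150.4 CPM in WT (median 67.4). Prince stood far above the next KO tumor, Massa, whose 8.92 CPM rests on 4 counts. Grilka had 3 counts and Oregon 0, and N215 with 4.54 CPM was below 6 KO tumors. On the log2 scale the change was −2.95 (SE 0.78, adjusted p = 0.0433, edgeR), and without Prince it was −3.85 (adjusted p = 0.0133, edgeR). Prince was the tumor with 20570 CPM of salivary gland genes, and the part of that tissue was not tested. Leaving out any of 10 tumors ended the call (edgeR adjusted p from 0.0576 to 0.0905), namely Medusa, Montana, Ohio, Grilka and the 6 tumors of N42 and N43. *Cd14* lies on chromosome 18 from 36725067 to 36726798, on the minus strand.

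*Mertk*, the receptor tyrosine kinase by which macrophages bind dying cells through the bridging proteins GAS6 and protein S, was 2.97-fold lower in KO. It ranged from 14.3 to 77.7 CPM in KO (median 32.4) and from 47.1 to 224 CPM in WT (median 113). The N43 spine tumor was the highest, and Zelda, Medusa and Prince exceeded both N215 and N25. The change was −1.57 on the log2 scale (SE 0.38, adjusted p = 0.0313, edgeR). Leaving out Montana, Grilka, Oregon, the N43 spine tumor or any tumor of N42 ended the call, with edgeR adjusted p from 0.0518 to 0.0731. The gene lies on chromosome 2 from 128698956 to 128802894, on the plus strand.

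*Adgre1*, which encodes the F4/80 antigen of mouse macrophages, ranged 2.88-fold among the WT tumors, from 18.8 to 54.0 CPM (median 41.2). In KO it lay between 4.03 and 29.2 CPM (median 9.61). Zelda was the only KO tumor above the lowest WT tumor, N25. The level was 3.21-fold lower in KO (log2 fold change −1.68, SE 0.36, adjusted p = 0.0176, edgeR), and no single tumor ended the call. Counts were low here, with 2 in Massa and 3 in Grilka. *Adgre1* lies on chromosome 17 from 57358691 to 57483527, on the plus strand.

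*Cd68*, a lysosomal glycoprotein of macrophages that osteoclasts also make, was 4.31-fold lower in KO. It lay between 7.64 and 25.5 CPM in KO (median 17.8) and between 19.2 and 177 CPM in WT (median 46.9). The N42 femur tumor with 177 CPM and the N43 pelvis tumor with 129 CPM were well above the other WT tumors, of which the next had 76.6 CPM. For *Cd68* the log2 change was −2.11 (SE 0.48, adjusted p = 0.0220, edgeR), and without the N42 femur tumor it was −1.75 (adjusted p = 0.0515, edgeR). The summed osteoclast genes were also highest in those tumors, 8887 CPM in the N42 femur and 6283 CPM in the N43 pelvis, and among KO tumors they were highest in Medusa (1945 CPM). None of the 7 osteoclast genes passed the threshold, all 7 had negative log2 fold changes (median −1.97), and their sums ranged from 29.0 to 1945 CPM in KO and from 64.2 to 8887 CPM in WT. *Ctsk*, *Acp5*, *Mmp9* and *Atp6v0d2* had counts in every tumor, whereas *Calcr* was at 0 in 1 KO tumor, *Dcstamp* in 2 KO tumors and *Ocstamp* in 1 tumor of each genotype. Their part in the *Cd68* and *Csf1r* values was not tested. *Cd68* lies on chromosome 11 from 69664213 to 69666153, on the minus strand.

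*Lyz2*, the lysozyme gene of macrophages and neutrophils that is also active in alveolar type II cells of the lung, was the most abundant of the 10. It lay between 54.4 and 1909 CPM in KO (median 113) and between 214.6 and 1377 CPM in WT (median 665). Massa had 1909 CPM and Zelda, the next KO tumor, 369.6 CPM, and N25 was the highest WT tumor. Its log2 change in the fit was −0.99 (SE 0.69, adjusted p = 0.414, edgeR). Without Massa it was −2.36 and past the threshold (adjusted p = 0.0129, edgeR). Massa and N25 were the tumors with lung epithelium genes at 12116 and 28993 CPM. They also had the most *Lyz1*, 73.6 and 47.4 CPM against 7.42 CPM or less elsewhere (log2 fold change −0.12, adjusted p = 0.966, edgeR). *Lyz1* is the close copy of *Lyz2*, 15.4% of the possible 50-base reads of *Lyz2* occur in both, and summing the pair changed no call. The part of lung tissue in the *Lyz2* values was not tested. The summed neutrophil genes were also high there, 149 CPM in Massa and 233 CPM in N25, and highest in Zelda at 429 CPM, against 34.7 CPM or less in the other tumors. *Lyz2* lies on chromosome 10 from 117277331 to 117282321, on the minus strand.

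**Figure D3:**
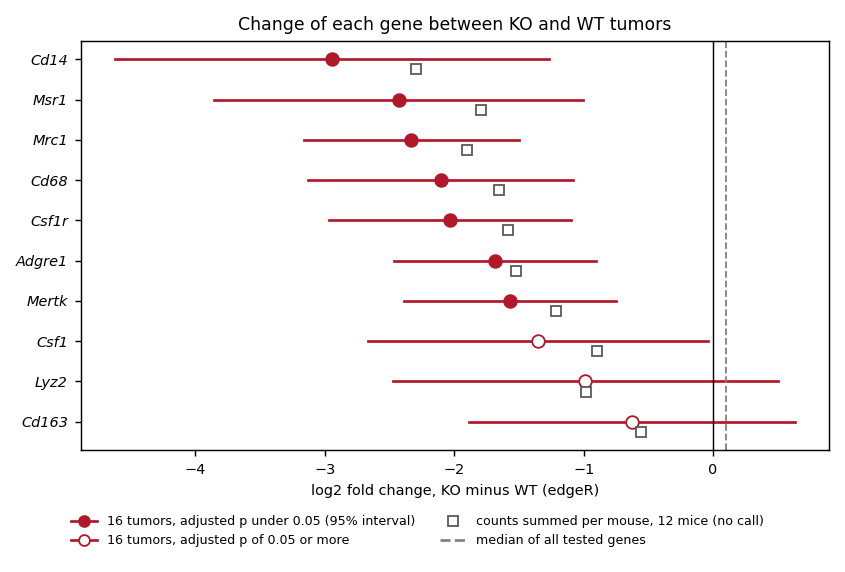
Log2 fold changes, KO minus WT, in the fit to 16 tumors (filled where the adjusted p is under 0.05), and open squares for counts summed over the tumors of each mouse, where no gene was called. The 95% intervals are built from the estimate and SE of the fit to 16 tumors and take tumors of 1 mouse as independent. All 10 estimates lie left of 0 in both fits, from −2.95 for *Cd14* to −0.63 for *Cd163* in the fit to 16 tumors.

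Levels of different genes were compared per length, as CPM per kb of exon. In WT the median of *Lyz2* was 505 CPM per kb, followed by *Mrc1* at 53.9, *Csf1r* at 46.8, *Csf1* at 42.8, *Cd14* at 38.9 and *Cd68* at 37.3 CPM per kb. The last 5 differed by less than the range of each among the WT tumors, which was 7.01-fold or more. *Mertk* at 26.0, *Msr1* at 15.1, *Adgre1* at 12.7 and *Cd163* at 4.84 CPM per kb completed the order. In KO *Lyz2* was again first at 86.2 CPM per kb, *Cd68* was next at 14.2, and *Csf1* and *Csf1r* followed at 10.7 and 10.1. *Mrc1* was at 7.77 CPM per kb, and *Cd163* was last at 1.53.

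A ratio of 2 genes within a tumor does not depend on how libraries are scaled, and 12 ratios were therefore compared between the 8 KO and 4 WT mice. They are ratios of read counts, not corrected for length, so only their differences between tumors can be read. None passed the threshold, and none had an unadjusted p under 0.05 (two-sided exact permutation tests over 495 splits, for which the smallest possible p is 0.00202). The largest difference was in *Csf1*/*Csf1r*. This ratio lay between 0.377 in Zelda and 3.43 in Grilka among KO tumors (median 1.16) and between 0.355 and 1.44 among WT tumors (median 0.730). Of the KO tumors 2, Medusa and Grilka, were above every WT tumor, and none was below every WT tumor. The mean log2 ratio was 0.33 ± 0.94 (SD, n = 8) in KO and −0.69 ± 0.40 (SD, n = 4) in WT, a difference of 1.02 (95% interval −0.10 to 2.09, exact permutation p = 0.0646, adjusted p = 0.776). Over 16 alternatives this difference ran from 0.77 to 1.27, with exact permutation adjusted p from 0.0727 to 0.988. No ratio passed the threshold in any of them.

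For the other 11 ratios the differences were smaller, and most intervals were wide. The log2 difference of *Mertk*/*Csf1r* was 0.21, with the narrowest interval of the 12, −0.35 to 0.76 (exact permutation p = 0.412), and the ratio ran from 0.387 to 0.905 in KO and from 0.207 to 0.916 in WT. *Mrc1*/*Csf1r* differed by −0.30 (95% interval −1.43 to 0.78), and 3 KO tumors were below every WT tumor, Medusa lowest at 0.306. For *Cd68*/*Csf1r* the difference was 0.06 (95% interval −0.92 to 1.07). *Adgre1*/*Csf1r* differed by −0.30 (95% interval −1.49 to 0.84) and *Msr1*/*Csf1r* by −0.46 (95% interval −1.90 to 0.96). The intervals of *Cd14*/*Csf1r* (−3.63 to 1.55), *Cd163*/*Csf1r* (−2.55 to 2.43) and *Lyz2*/*Csf1r* (−2.88 to 2.28) spanned several fold in both directions. In KO, *Cd14* was at 0 counts in Oregon, and the *Lyz2* ratio was highest in Massa at 63.4. The *Cd163* ratio was highest in Montana, where *Cd163* was above *Csf1r* at 1.78, and Oregon was next at 0.683. Between macrophage markers, *Cd163*/*Mrc1* differed by 0.22 (95% interval −1.83 to 2.30), *Adgre1*/*Cd68* by −0.35 (−2.01 to 1.25) and *Lyz2*/*Cd68* by −0.41 (−2.60 to 1.79). The adjusted p of these 11 ratios was 0.945 each.

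**Figure D4:**
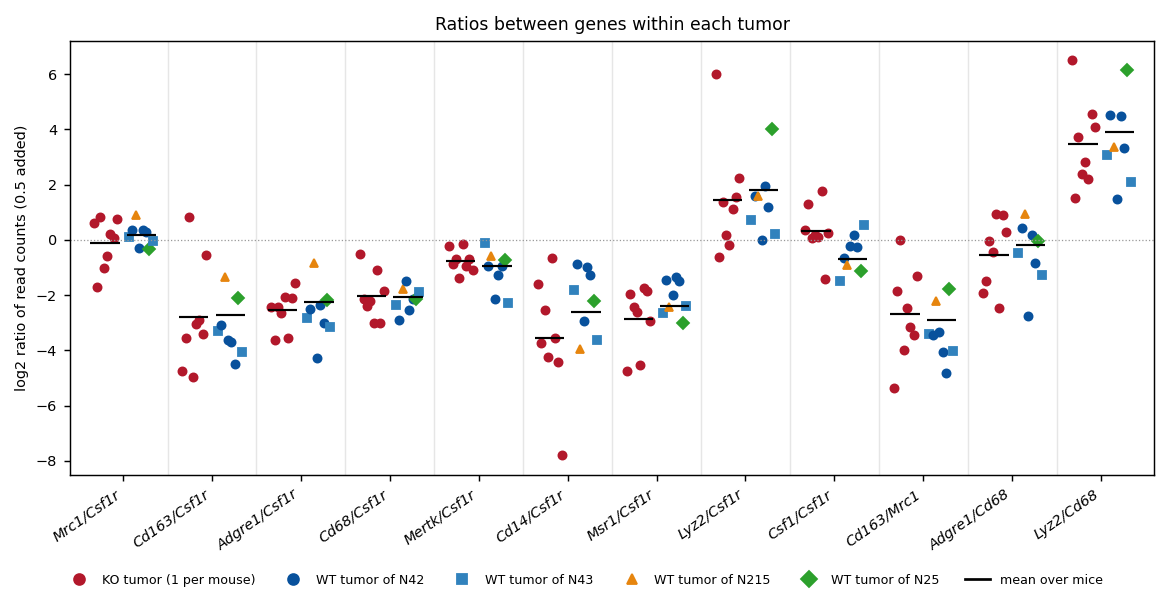
Log2 ratios of read counts (0.5 added to each count) in each tumor, KO left and WT right in every column, with horizontal lines at the means over mice. The KO and WT values overlap in all 12 columns, and the *Csf1*/*Csf1r* means are 0.33 in KO and −0.69 in WT.

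Sites were given for the WT tumors only, and the values by site are described without a test, since sites and mice cannot be told apart. In N42, the mouse with 4 tumors, *Mrc1* and *Msr1* varied least, 1.22-fold and 1.24-fold between the lowest and the highest tumor. *Mertk* varied 1.59-fold, *Csf1r* 1.86-fold, *Csf1* 2.51-fold, *Cd163* 2.71-fold and *Cd68* 4.88-fold. The N42 femur tumor had the most *Csf1r* (499 CPM), *Csf1* (429.5 CPM) and *Cd68* (177 CPM) of that mouse and the least *Adgre1* (26.0 CPM), *Cd14* (65.8 CPM) and *Lyz2* (492 CPM). In N43 the pelvis tumor had 7.95-fold more *Csf1* than the spine tumor, 2.73-fold more *Cd68* and 1.96-fold more *Csf1r*. *Mertk* and *Cd14* were lower in the pelvis tumor, at 0.443 and 0.561 of the spine values. The 3 spine and pelvis tumors and the 4 limb and shoulder tumors overlapped for all 10 genes. The right pelvis tumor of N42 was unlike the pelvis tumor of N43 in *Csf1* (171 against 689.8 CPM) and *Cd14* (150.4 against 38.7 CPM). The N25 lung tumor had 84.9 CPM of *Csf1r* and the lowest WT values of *Mrc1*, *Msr1*, *Adgre1* and *Cd68*, beside the highest *Lyz2*. The N215 hind limb tumor had the lowest WT values of *Csf1r*, *Csf1*, *Cd14*, *Mertk* and *Lyz2*, while its *Adgre1* of 40.0 CPM was close to the WT median. Without N215 and N25, a set chosen after the values were seen, 7 of the 10 genes were called lower. The log2 fold change of *Csf1r* was then −2.30 (adjusted p = 0.00284, edgeR). Leaving out the lowest WT tumors widens the difference by construction. The number of all genes called rose from 618 to 1518, and the 6 WT tumors left came from N42 and N43 only.

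**Figure D5:**
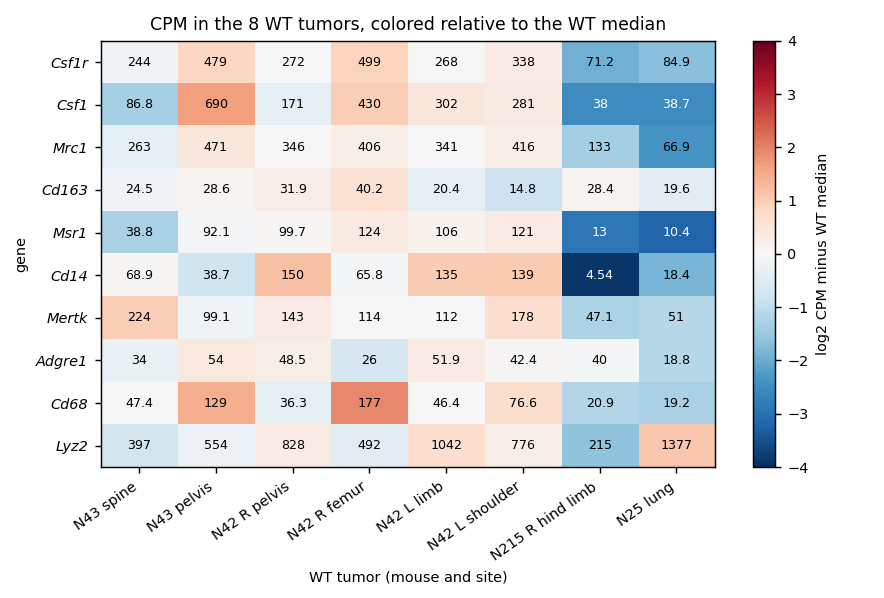
CPM of the 10 genes in the 8 WT tumors, printed in each cell and colored by the log2 difference from the WT median of the gene. N215 and N25 are blue for most genes, *Lyz2* is highest in N25 (1377 CPM), and the N42 femur and N43 pelvis tumors are red for *Cd68* and *Csf1*.

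Among the KO tumors Zelda had the highest *Csf1r*, *Mrc1*, *Msr1*, *Mertk* and *Adgre1*. It also had the highest sum of the 14 other pan-macrophage genes, 1772 CPM, against 109 to 573 CPM in the other KO tumors and 366 to 1444 CPM in WT. Of that sum 845 CPM was *Ptprc*, a gene of all leukocytes, and Zelda had less *Csf1r* than 6 of the 8 WT tumors. Its sums of monocyte (390.0 CPM), neutrophil (429 CPM), T cell (103 CPM), B cell (476 CPM) and liver (1316 CPM) genes were the highest of all 16 tumors. The part of these cells and tissues in its macrophage values was not tested. *Csf1*, *Cd14*, *Cd68*, *Cd163* and *Lyz2* were highest in other KO tumors (Medusa, Prince, Grilka, Montana and Massa, in that order). For *Cd68* Grilka had 25.5 CPM, from 19 counts, and Medusa 25.3 CPM. Without Zelda the 7 calls held, with a log2 fold change of −2.22 for *Csf1r* (adjusted p = 0.00948, edgeR). Leaving out a high KO tumor widens the difference by construction, and the number of all genes called rose from 618 to 1348.

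A further 64 genes stood in 7 lists of macrophage markers and pathways, and not all of them are particular to macrophages. Of these genes 57 were tested, 12 were lower in KO and 2 were higher. Against the 2.15% of all tested genes that were called lower, these were 6 of 14 pan-macrophage genes, 2 of 8 scavenger receptors and lectins, 2 of 9 partners of CD14, 1 of 6 genes of apoptotic cell clearance and 1 of 6 genes of resident macrophages. None of the 5 CSF family genes and none of the 9 transcription factors was called. Of the 57 log2 fold changes 46 were negative, and their median was −0.66. With counts summed per mouse none of them was called lower.

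*Fcgr3*, a low-affinity receptor for IgG, had the smallest p-value of the pan-macrophage genes. It was at 5.03 to 21.3 CPM in KO and at 18.6 to 168 CPM in WT (log2 fold change −3.27, adjusted p = 0.00259, edgeR). *Ctss*, a lysosomal cysteine protease for antigen processing, fell by 2.12 on the log2 scale (adjusted p = 0.0322, edgeR). *Mpeg1*, a pore-forming protein of phagosomes, had a log2 fold change of −1.48 (adjusted p = 0.120, edgeR), and *Ptprc*, the CD45 antigen of all leukocytes, one of 0.41 (adjusted p = 0.807, edgeR). The value of *Ptprc* turned to −1.72 without Zelda (adjusted p = 0.0259, edgeR) and to −1.52 with DESeq2 (adjusted p = 0.00869), both called lower. *Cx3cr1*, the fractalkine receptor, rose by 2.53 (adjusted p = 0.0461, edgeR), with 5.31 to 212 CPM in KO and 3.07 to 27.1 CPM in WT. *Stab2*, a hyaluronan scavenger receptor of sinusoidal endothelium, rose by 4.29 (adjusted p = 0.0493, edgeR) and was at 0 in 2 KO tumors and at up to 278 CPM in another. With counts summed per mouse neither passed (adjusted p = 0.568 for *Cx3cr1* and adjusted p = 0.587 for *Stab2*, edgeR). *Cx3cr1* and *Stab2* were singled out after their values were seen.

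The pathway around *Mertk* showed lower *Pros1*, the gene of its ligand protein S (log2 fold change −1.41, adjusted p = 0.0123, edgeR). The second ligand *Gas6* had a log2 fold change of −1.31 (adjusted p = 0.174, edgeR) and the sister receptor *Axl* −0.82 (adjusted p = 0.0931, edgeR). *Mfge8*, a bridging protein of apoptotic cell clearance that is not a ligand of MERTK, had −0.77 (adjusted p = 0.120, edgeR). Among the partners of *Cd14*, *Tlr4*, the receptor that signals for lipopolysaccharide, fell by 1.52 (adjusted p = 0.0271, edgeR), and *Tlr2*, the receptor for bacterial lipoproteins, fell by 2.18 (adjusted p = 0.00945, edgeR). *Lbp*, the binding protein that hands lipopolysaccharide to CD14, had −2.01 (adjusted p = 0.0840, edgeR), and the adaptor *Tirap* −0.42 (adjusted p = 0.480, edgeR). Beside *Mrc1*, its relative *Mrc2* of mesenchymal cells had −1.70 (adjusted p = 0.109, edgeR). The scavenger receptors *Stab1* (log2 fold change −1.84, adjusted p = 0.0198, edgeR) and *Colec12* (log2 fold change −1.80, adjusted p = 0.0319, edgeR) were lower in KO. Of the resident macrophage genes *Siglec1*, a sialic acid receptor, fell by 2.21 (adjusted p = 0.0181, edgeR), and *F13a1*, the coagulation factor XIII subunit, had −1.38 (adjusted p = 0.0656, edgeR). *Cbr2*, which lung club cells also express strongly, reached 3531 CPM in N25 and 1222 CPM in Massa and had a log2 fold change of −1.48 (adjusted p = 0.648, edgeR). For *Cbr2* this turned to 4.10 without N25 (adjusted p = 0.0848, edgeR) and was −5.10 without Massa (adjusted p = 0.0945, edgeR), so its direction rests on single tumors.

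In the CSF family *Csf2rb*, the beta chain shared by the GM-CSF and interleukin-3 receptors, had a log2 fold change of −1.25 (adjusted p = 0.0881, edgeR). *Csf2rb2*, a beta chain of the interleukin-3 receptor only, had −0.66 (adjusted p = 0.431, edgeR). The alpha chain of the GM-CSF receptor, *Csf2ra*, had −0.44 (adjusted p = 0.450, edgeR). *Il34*, the other ligand of CSF1R, was named after its values were seen. It lay between 0.191 and 39.3 CPM in KO and between 1.36 and 16.5 CPM in WT (log2 fold change 0.59, adjusted p = 0.713, edgeR). Of the transcription factors *Maf* had a log2 fold change of 0.83 (adjusted p = 0.253, edgeR), *Runx1* −0.48 (adjusted p = 0.369, edgeR) and *Nr1h3*, the liver X receptor alpha, 1.60 (adjusted p = 0.0618, edgeR).

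Among the named genes of these lists the call was lost in 17 of 30 alternatives for *Ctss*, in 14 for *Colec12* and in 13 for *Tlr4*, and in 5 or 6 for *Fcgr3*, *Tlr2*, *Pros1*, *Stab1* and *Siglec1*. A call was gained in 5 for *F13a1* (lower), in 5 for *Nr1h3* (higher), in 3 for *Mfge8* (lower), in 2 each for *Csf2rb*, *Lbp* and *Ptprc* (lower) and in 1 each for *Axl*, *Mrc2* and *Mpeg1* (lower).

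The genes whose log2 CPM was most like that of *Csf1r* over the 16 tumors were *Gusb* (Pearson r 0.99), *Adam8* (0.94), *Ifi30* (0.94), *Ctsz* (0.94) and *Ms4a6c* (0.94). For *Csf1* they were *Gm20056* (Pearson r 0.92), *Tm4sf19* (0.91), *Ahcyl1* (0.91), *Ocstamp* (0.91) and *Gnptab* (0.89). These r span both genotypes and several tumors of the same mice, and they are given as a description of likeness.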

How the data were processed

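RNA from 16 tumors was depleted of ribosomal RNA and sequenced from 1 end on an Illumina instrument. The authors aligned the reads with Novoalign 2.08.01 to mm10 and Ensembl splice junctions, and kept the best alignments. They counted reads per gene with USeq, and the deposited table holds these raw counts for 25054 genes. The smallest total of a gene is 6. Whether the counting used strand is not given in the sources used here. Reads that fit several genes can move counts between copies such as *Lyz1* and *Lyz2*.

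Groups were taken from the genotype labels, and animal codes were taken to name mice. The labels do not say how the KO names relate to animals, and p-values measure the spread between these tumors. No batch is given. Counts were compared with edgeR 4.0.16 in R 4.3.3 (TMM, filterByExpr with a minimum count of 10 and total of 15, glmQLFit, glmQLFTest), over 15413 genes, with a two-sided Benjamini-Hochberg threshold of 0.05. DESeq2 1.42.0, limma 3.58.1 (voom, mouse as random effect), other scalings, filters, units and sets of tumors were alternatives. Log2 CPM used a prior count of 2. Ratios used counts plus 0.5, averaged per mouse, in exact permutation tests, adjusted over the 12 ratios. Their 95% intervals hold the shifts that the test does not reject. Floors of 3 counts cover counting error only. The scripts were tested on simulated data. Positions, lengths and possible 50-base reads are from GENCODE vM21 (GRCm38), which is later than the models the authors used, and promoters are from RefSeq.

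The 10 genes and all lists were chosen with earlier results of these data known. Named beside them are the conditional genes, *Lyz1*, the 3 most abundant tested genes and the 1 with the smallest p-value of each macrophage list, the 5 genes most like *Csf1r* and *Csf1*, and markers whose values stand beside a result. For 1 of the genes this rule takes, the values are not reported here.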

Additional observations from a re-analysis of the deposited data

Results flagged for a closer look

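Of 44 groups of 8 values (log2 CPM of each of the 10 genes and the 12 ratios, in each genotype), 3 held a tumor far from the others by Dixon's criterion, where chance alone flags about 1 in 20 groups. The log2 CPM of *Msr1* in KO was lowest in Massa, at a Dixon ratio of 0.529 against a critical value of 0.526. Massa had 0 counts of *Msr1*, and its floor is 6.69 CPM. The log2 CPM of *Cd14* in KO was lowest in Oregon, with a Dixon ratio of 0.589 and 0 counts. The log2 ratio of *Lyz2* to *Csf1r* in KO was highest in Massa, at 5.99 with the next tumor at 2.24, a Dixon ratio of 0.566. Massa is also the KO tumor with lung epithelium genes at 12116 CPM, whose part in this value was not tested.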

How the results depend on the processing

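No paired analysis was possible because no mouse gave tumors to both groups. The log2 fold changes of the 10 genes were negative in all 30 alternatives, which hold the fit without N25 under 2 names (median −2.12 to −1.49), and *Csf1r*, *Mrc1* and *Adgre1* were called without any 1 tumor. The number of the 10 genes called lower, the number of list genes called lower and the number of all genes called (7, 12 and 618) were 7, 20 and 2517 with DESeq2, 0, 0 and 17 with limma-voom and mouse as a random effect (8 of the 10 with unadjusted p under 0.05), 0, 0 and 10 with counts summed per mouse (7), 0, 0 and 7 with 1 tumor per mouse (7), 0, 0 and 35 with structural RNA as a covariate (3) and 0, 0 and 8 without the 4 tumors of N42 (5). They were 4, 14 and 567 with total-count scaling, 6, 12 and 679 with no filter on low counts, 6, 12 and 628 with RLE size factors and 5, 12 and 890 without the 2 shallowest KO libraries. Alternatives chosen after seeing the data gave 7, 16 and 1518 without N215 and N25 and 1, 3 and 133 without N43. Leaving out 1 tumor gave 3 to 8, 6 to 19 and 252 to 1348. Among all tested genes the unadjusted p was under 0.05 for 1371 of 15413 with limma-voom and 1262 of 16007 with counts summed per mouse. It was so for 1152 of 15995 with 1 tumor per mouse, 2086 of 15413 with the covariate and 1283 of 16050 without N42. Why these counts moved was not tested.

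The sign of the log2 fold change turned for *Ptprc* with DESeq2 (−1.52, called lower) and limma-voom (−0.89). For *Cbr2* it turned with DESeq2 (0.40), without N25 (4.10) and without N215 and N25 (4.35). For *Lyz1* it turned with RLE (0.0078), without N25 (1.24) and without N215 and N25 (1.25). *Arid1a* turned with total counts (−0.29) and the covariate (−0.078), *Rb1* with total counts (−0.073) and *Csf2rb2* with the covariate (0.28). Leaving out 1 tumor gave −1.72 to 0.71 for *Ptprc*, −5.10 to 4.10 for *Cbr2*, −2.59 to 1.24 for *Lyz1* and −0.14 to 0.33 for *Rb1*. Of the log2 ratio differences, *Cd163*/*Csf1r* was 0.42 over 16 tumors, 0.20 with a pseudocount of 2, 0.12 without N25 and 0.26 without the shallow libraries. *Adgre1*/*Csf1r* was 0.086 and *Lyz2*/*Csf1r* 0.046 over 16 tumors. Without N25, *Lyz2*/*Csf1r* was 0.38 and *Lyz2*/*Cd68* 0.34, and without the shallow libraries *Cd68*/*Csf1r* was −0.35 and *Adgre1*/*Cd68* 0.21. Leaving out 1 mouse gave −0.60 to 0.38 for *Cd163*/*Csf1r*, −0.55 to 0.18 for *Adgre1*/*Csf1r*, −0.16 to 0.20 for *Cd68*/*Csf1r*, −1.01 to 0.38 for *Lyz2*/*Csf1r*, −0.17 to 0.60 for *Cd163*/*Mrc1*, −0.58 to 0.022 for *Adgre1*/*Cd68* and −0.85 to 0.34 for *Lyz2*/*Cd68*. The *Csf1* and *Csf1r* correlation was 0.77 with total counts (exact permutation p = 0.0268) and 0.40 to 0.83 without 1 tumor. The cause was not tested. Shallow KO libraries limit genes of low level, such as *Adgre1*, *Cd14* and *Msr1*.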
